A study of Brassica napus with 14 samples.

Results

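The genes described here encode the plastid route from phosphoenolpyruvate to free fatty acids in seeds of Brassica napus (oilseed rape), an allotetraploid crop with an A and a C subgenome. They were taken by Arabidopsis locus from a list of 31 loci of plastid pyruvate kinase, plastid pyruvate dehydrogenase, acetyl-CoA carboxylase, fatty acid synthase, acyl carrier proteins, thioesterases and the acyl-CoA synthetase LACS9. Every gene of the deposited table that carries 1 of these loci was kept. This gave 153 genes, called copies below, of 30 loci, among 96219 genes in all. ACP2 (AT1G54580) was not analysed here. All plants were of the cultivar DH12075 and were grown under long days. Whole ovules of stage OV came from flowers of day 0. Whole seeds were taken 7 days after fertilization (GLOB), after 10 days (HEART), after 28 days (MG) and after 35 days (DS). There were 3 libraries per stage, except DS with 2.

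Plants make fatty acids inside plastids. Pyruvate kinase and pyruvate dehydrogenase supply acetyl-CoA, and acetyl-CoA carboxylase turns it into malonyl-CoA. The acyl chain then grows on an acyl carrier protein through repeated rounds of condensation, reduction, dehydration and a further reduction. Thioesterases release the finished chain, and a synthetase of the plastid envelope couples it to coenzyme A for export. In oilseeds this route feeds the storage oil of the embryo, and in Arabidopsis many of its genes are controlled by the transcription factor WRI1.

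The deposited values are FPKM (fragment counts scaled by transcript length and library size), with 1 value per gene and stage. Spread between libraries and depth per library are therefore unknown, no difference below has a replicate check, and no test could be run. A difference between 2 stages was counted where it was at least 1 on the log2(FPKM + 1) scale, which is a 2-fold difference of FPKM + 1. Counts cover the 49417 genes that reached 1 FPKM in at least 1 stage. Of the 153 copies, 111 did so, 21 stayed above 0 but under 1 FPKM, and 21 were listed at 0 in all 5 stages. Marker genes followed the stage labels in part. The seed coat gene BAN summed to 0.708 FPKM in OV and 248 in HEART, the albumin gene SESA1 to 11.1 in HEART and 89465 in MG, and the late gene EM6 to 44833 in DS. The 5 egg cell genes EC1.1 to EC1.5 were at 0 to 1.69 FPKM in OV. Endosperm genes were low, with AGL62 highest in MG, at 5.36 FPKM, and PHE1 highest in HEART, at 1.98. The embryo gene LEC1 was at 0.677 FPKM in GLOB and 65.7 in HEART. In whole seeds, a larger share of cells of a kind and more RNA per cell cannot be told apart.

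Summed over all copies, transcripts of the pathway were at 1062 FPKM (OV), 1821 (GLOB), 2005 (HEART), 6290.1 (MG) and 535 (DS). MG was the highest stage and DS the lowest. As a share of all FPKM of the stage, the pathway held 0.238% (OV), 0.285% (GLOB), 0.338% (HEART), 0.416% (MG) and 0.0586% (DS). The order of the stages was the same on this scale, but the step from HEART to MG was much smaller. The deposited MG column sums to 1511542 FPKM and the HEART column to 593838, so a copy that keeps its share of the total is already higher in MG as deposited. By sum over copies, 27 of the 30 loci were highest in MG as deposited and 15 on a common sum of the stages. Of single copies, 85 of 111 were highest in MG (76.6%, beside 19.5% of all genes considered), and 43 on a common sum (38.7%, beside 6.20%). As deposited, 21 loci were lowest in DS.

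**Figure D1:**
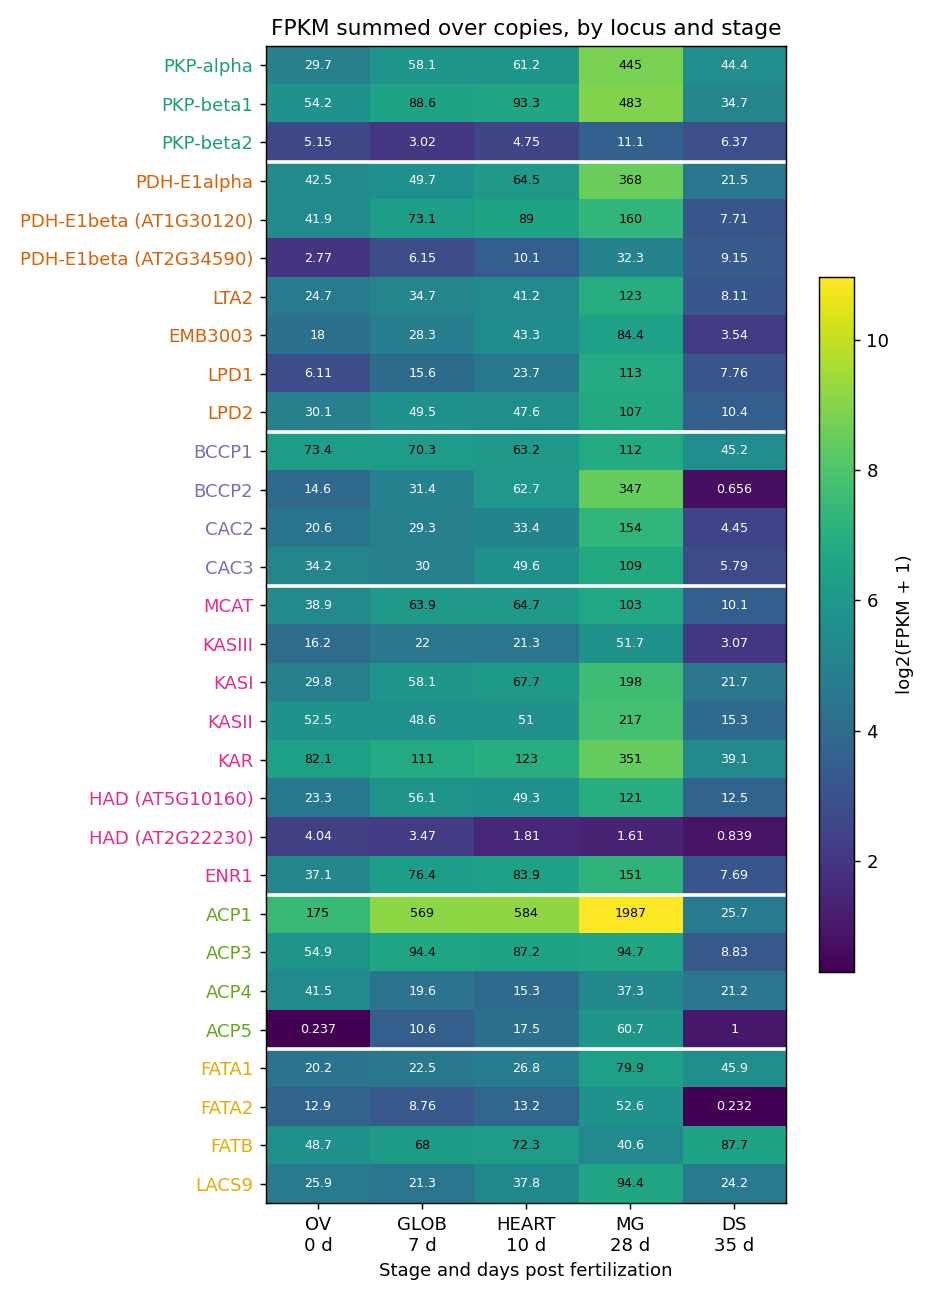
FPKM summed over the copies of each locus (rows, coloured by step of the pathway) in the 5 stages (columns, with days post fertilization), with colour on the log2(FPKM + 1) scale and the FPKM printed in each cell. Most rows are brightest in MG and darkest in DS, while FATB is highest in DS and HAD (AT2G22230) stays at or below 4.04 FPKM.

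Early steps moved few copies. From OV to GLOB, 17 of 111 copies were higher, which is 15.3% beside 15.8% of all genes considered, and 5 were lower, beside 11.0%. The share of higher copies was thus near that of all genes. The balance turned on a common sum, with 9 copies higher, beside 11.9% of all genes, and 12 lower, beside 25.4%. As deposited, the median difference of the copies was 0.50, against 0.00 for all genes, and acyl carrier proteins gave 6 of the 17 higher copies. From GLOB to HEART, 6 copies were higher, beside 4.89% of all genes, and 0 were lower, beside 2.50%.

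From HEART to MG, 61 of the 111 copies were higher, a share of 55.0% beside 17.4% of all genes, and 3 were lower, beside 22.4%. The median difference was 1.1 for the copies and -0.09 for all genes. Scaling the stages to equal sums shifted all genes to a median of -1.03 and the copies to -0.026. On that scale 16 copies were higher, beside 7.25% of all genes, and 19 lower, beside 51.2%. Relative to the median of all genes the copies thus stood 1.19 higher as deposited and 1.01 higher on a common sum. Whether the pathway rose in absolute terms cannot be read from a relative unit.

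From MG to DS, 87 copies were lower, a share of 78.4% beside 21.3% of all genes, and 6 were higher, beside 19.0%. Their median difference was -3.07, against -0.01 for all genes. A common sum left this direction in place, with 79 copies lower, beside 12.6% of all genes, 9 higher, beside 30.7%, and a median of -2.38 against 0.29. The steps share the MG column, so a high value there enters both. Between the end points OV and DS, which do not use it, 58 copies were lower, beside 25.5%, and 7 were higher, beside 23.1%. The median from OV to DS was -1.16 for the copies and -0.03 for all genes.

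**Figure D2:**
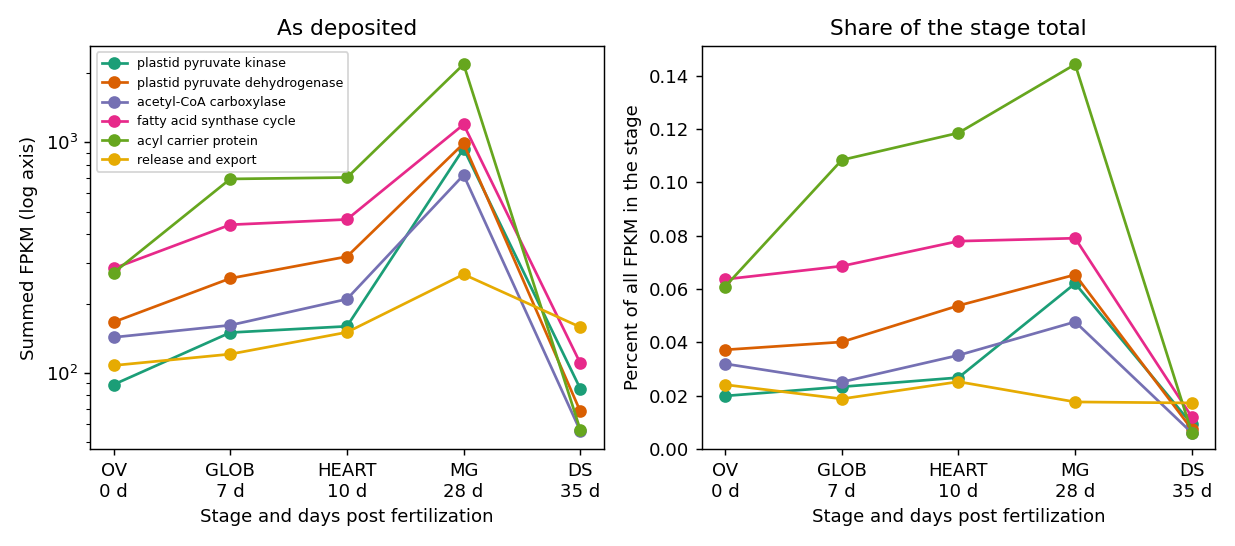
Summed FPKM of each step of the pathway by stage, as deposited on a log axis (left) and as a percentage of all FPKM of the stage from 0 (right), with stages spaced evenly and not by days. On the left all 6 steps are highest in MG, while on the right release and export is highest in HEART, at 0.0253%, and the synthase cycle is nearly level from HEART (0.0780%) to MG (0.0790%).

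**Figure D3:**
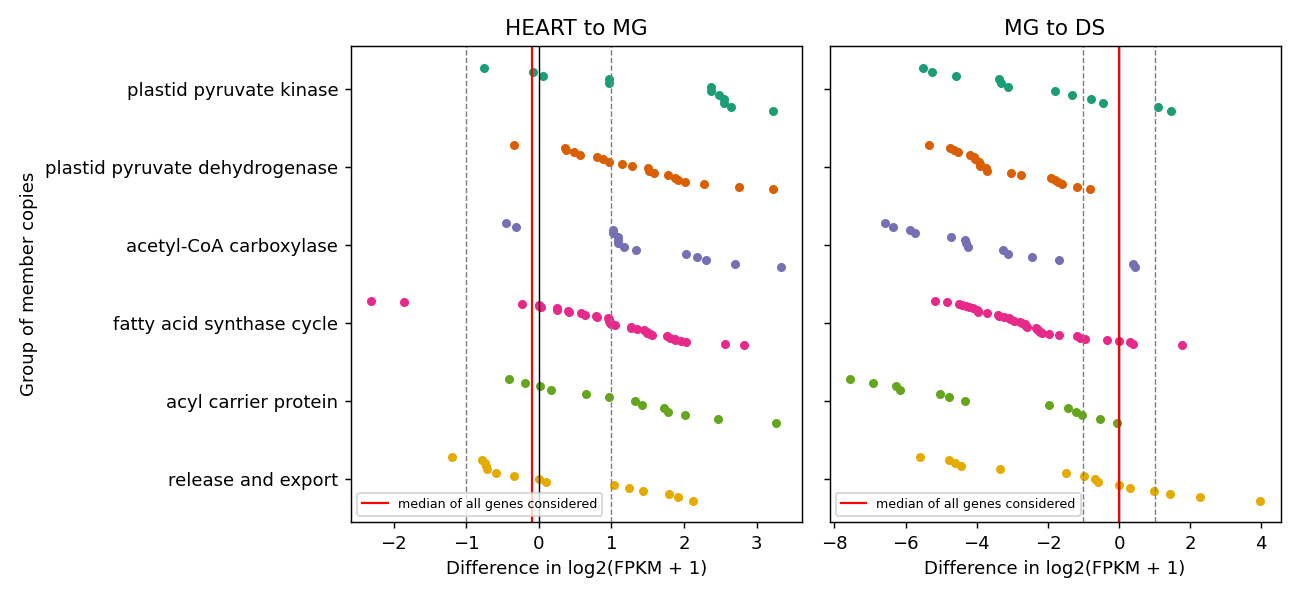
Difference of each of the 111 copies in log2(FPKM + 1) from HEART to MG (left) and from MG to DS (right), by step of the pathway, with 1 point per copy. Dashed lines mark the limit of 1 in either direction and the red line the median of all genes considered (-0.09 and -0.01); 61 copies lie at or beyond the upper limit on the left and 87 at or beyond the lower limit on the right.

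Plastid pyruvate kinase, which makes pyruvate from phosphoenolpyruvate inside the plastid, had the steepest climb into MG of the 6 steps, from 159 to 938 FPKM, or 5.89-fold. The alpha subunit PKP-alpha (AT3G22960) was at 29.7 FPKM (OV), 58.1 (GLOB), 61.2 (HEART), 445 (MG) and 44.4 (DS). MG stands alone, the other stages lying between 29.7 and 61.2 FPKM. From HEART to MG its log2 difference was 2.84 as deposited and 1.5 on a common sum, and all 4 copies were higher. PKP-beta1 (AT5G52920), the beta subunit that predominates in Arabidopsis seeds, followed the same course at 54.2, 88.6, 93.3, 483 and 34.7 FPKM from OV to DS. Its difference into MG was 2.36, and 1.02 on a common sum. The other beta subunit, PKP-beta2 (AT1G32440), stayed between 3.02 and 11.1 FPKM, and PKP-beta1 held 97.7% of the beta transcripts in MG. The ratio of alpha to beta transcripts went from 0.501 in OV to 0.624 in HEART and 0.901 in MG, so the subunits were closer to equal in MG than before.

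Plastid pyruvate dehydrogenase converts pyruvate to acetyl-CoA with E1, E2 and E3 components. The E1alpha subunit (AT1G01090) was at 42.5 FPKM (OV), 49.7 (GLOB), 64.5 (HEART), 368 (MG) and 21.5 (DS). Its partner E1beta, mostly AT1G30120, was at 41.9, 73.1, 89.0, 159.6 and 7.71 FPKM in the same order. The pair did not climb alike. E1alpha differed by 2.49 on the log2 scale from HEART to MG, and AT1G30120 by 0.84, under the limit. On a common sum the values were 1.16 and -0.50. The ratio of E1alpha to all E1beta transcripts was 0.651 in HEART and 1.92 in MG. The minor E1beta locus AT2G34590 was at 32.3 FPKM (MG) and 9.15 (DS), where it slightly exceeded AT1G30120. It rests on 1 copy considered, whose Darmor identifier is also carried by copies of AT1G30120, so the split between these loci is uncertain.

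The E2 acetyltransferases of the complex were of like abundance. LTA2 (AT3G25860) was at 41.2 FPKM in HEART and 123 in MG, and EMB3003 (AT1G34430) at 43.3 and 84.4 FPKM. LTA2 held between 48.7% (HEART) and 69.6% (DS) of E2 transcripts. Of the E3 dihydrolipoamide dehydrogenases, LPD1 (AT3G16950) was at 6.11 FPKM (OV), 15.6 (GLOB), 23.7 (HEART), 113 (MG) and 7.76 (DS). LPD2 (AT4G16155) was at 30.1, 49.5, 47.6, 107 and 10.4 FPKM in these stages. The HEART to MG difference of LPD2 was 1.16 as deposited and -0.17 on a common sum. LPD2 led until HEART, and the E3 loci were nearly level in MG, where LPD1 held 51.3% of their sum against 16.9% in OV. All 7 loci of the complex were lower in DS than in MG by the limit of 1. Of their 20 copies considered, 19 were lower (95%, beside 21.3% of all genes), and 18 on a common sum (90%, beside 12.6%). From HEART to MG, 12 copies were higher (60%, beside 17.4%) and 0 were lower (beside 22.4%). On a common sum 2 were higher in that step (10%, beside 7.25%) and 1 was lower (5%, beside 51.2%).

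Acetyl-CoA carboxylase of the plastid has a biotin carboxyl carrier (BCCP), a biotin carboxylase (CAC2) and an alpha carboxyltransferase (CAC3). Its beta carboxyltransferase is encoded in the plastid genome and was not analysed here. The carrier isoforms took different courses. BCCP2 (AT5G15530), which in Arabidopsis is the carrier most tied to seeds, was at 14.6 FPKM (OV), 31.4 (GLOB), 62.7 (HEART), 347 (MG) and 0.656 (DS). BCCP1 (AT5G16390) was at 73.4, 70.3, 63.2, 112 and 45.2 FPKM. It differed by less than the limit in each step before MG and into MG (0.81), and on a common sum its difference into MG was -0.52, against 1.11 for BCCP2. BCCP2 accounted for 16.6% (OV), 30.8% (GLOB), 49.8% (HEART), 75.6% (MG) and 1.43% (DS) of carrier transcripts. From MG to DS the log2 difference was -7.71 for BCCP2 and -1.29 for BCCP1. The BCCP2 value in DS is under 1 FPKM, and the number of reads behind it is unknown.

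As deposited, the other carboxylase subunits also peaked in MG. CAC2 (AT5G35360) was at 20.6 FPKM (OV), 33.4 (HEART), 154 (MG) and 4.45 (DS). CAC3 (AT2G38040) was at 34.2, 49.6, 109 and 5.79 FPKM. Their HEART to MG differences on a common sum were 0.84 for CAC2 and -0.21 for CAC3, which was then highest in HEART. CAC3 exceeded CAC2 in HEART (ratio of CAC2 to CAC3 0.674) and CAC2 exceeded CAC3 in MG (ratio 1.41). In DS, BCCP1 remained at 45.2 FPKM while CAC2 and CAC3 were near 5, and carrier transcripts were 10.3 times those of CAC2 there, against 2.98 times in MG.

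**Figure D4:**
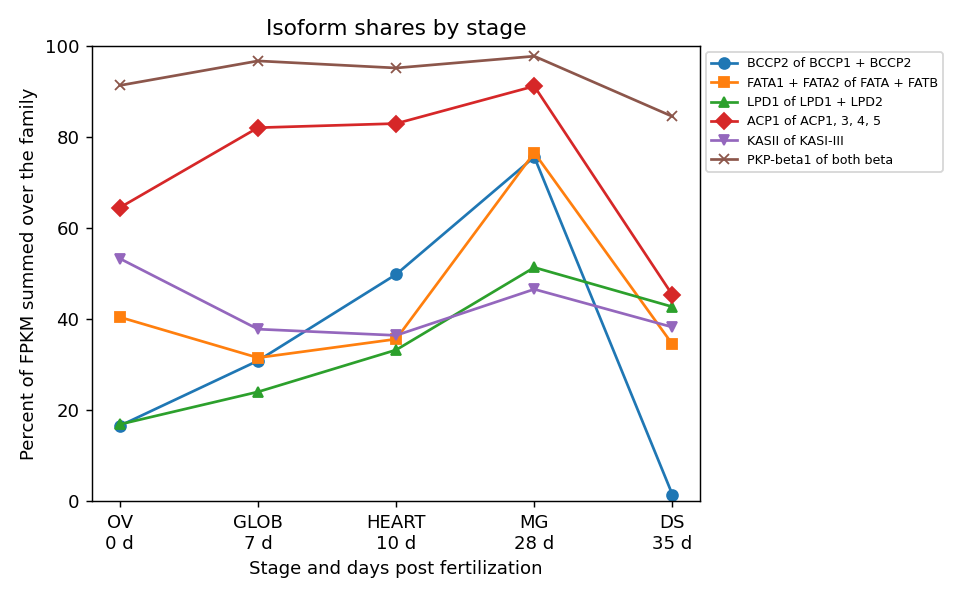
Share of an isoform in the FPKM summed over its family, in percent, for 6 families by stage, with stages spaced evenly and not by days. BCCP2 and the FATA pair reach their highest shares in MG (75.6% and 76.6%) and drop in DS (1.43% and 34.5%), while PKP-beta1 stays at 84.5% or more throughout.

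Within the elongation cycle, malonyl transfer from coenzyme A to the carrier protein is the task of MCAT (AT2G30200). Its transcripts were at 38.9 FPKM (OV), 63.9 (GLOB), 64.7 (HEART), 103 (MG) and 10.1 (DS). The difference into MG was 0.66, under the limit, and 0 of its 4 copies considered reached it. Among the condensing enzymes, KASIII (AT1G62640) starts the chain, KASI (AT5G46290) extends it to palmitoyl-ACP, and KASII (AT1G74960) extends palmitoyl-ACP to stearoyl-ACP. KASIII was the lowest of them in all 5 stages, at 51.7 FPKM in MG. KASI was at 29.8 FPKM (OV), 58.1 (GLOB), 67.7 (HEART), 198 (MG) and 21.7 (DS). KASII was flat before MG, at 52.5, 48.6 and 51.0 FPKM, then stood at 217 in MG and 15.3 in DS. KASII led in OV (53.3% of the 3 loci) and in MG (46.6%), and KASI led in GLOB (45.2%), HEART (48.4%) and DS (54.1%).

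Ketoacyl-ACP reductase KAR (AT1G24360), the first reductase of each round, was the most abundant enzyme of the cycle in all 5 stages. Its transcripts were at 82.1 FPKM (OV), 110.6 (GLOB), 123 (HEART), 351 (MG) and 39.1 (DS). The hydroxyacyl-ACP dehydratase AT5G10160 was at 23.3, 56.1, 49.3, 121 and 12.5 FPKM. Its close relative AT2G22230 fell outside the general pattern, with its highest sum, 4.04 FPKM, in OV and 1.61 FPKM in MG. AT5G10160 held at least 85.2% of dehydratase transcripts in every stage. Enoyl-ACP reductase ENR1 (AT2G05990), which closes each round, was at 37.1, 76.4, 83.9, 151 and 7.69 FPKM. ENR1 was higher from OV to GLOB (1.02, with 1 of its 4 copies beyond the limit), but by 0.52 on a common sum, under the limit. It differed by 0.84 from HEART to MG, where 0 of its 4 copies passed the limit. Of 37 copies considered in the cycle, 17 rose and 2 fell from HEART to MG, and 31 fell and 1 rose from MG to DS. These are 45.9% higher (17.4% of all genes) and 5.41% lower (22.4%) in the earlier step, and 83.8% lower (21.3%) and 2.70% higher (19.0%) in the later. As a share of all FPKM the cycle was nearly level from HEART to MG, and on a common sum it had 2 copies higher (7.25% of all genes) and 4 lower (51.2%), with 29 lower from MG to DS (12.6%). On that scale the HEART to MG difference was -0.67 for MCAT, -0.066 for KASIII, -0.050 for AT5G10160 and -0.49 for ENR1, while KASI (0.20), KASII (0.74) and KAR (0.16) stayed above 0.

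Acyl carrier proteins hold the growing chain, and ACP1 (AT3G05020) was the most abundant locus of the whole pathway in every stage up to MG. Its 7 copies summed to 175 FPKM (OV), 569 (GLOB), 584 (HEART), 1987 (MG) and 25.7 (DS). As deposited, all 5 copies considered were higher from OV to GLOB (beside 15.8% of all genes) and again from HEART to MG (beside 17.4%). All 5 were lower from MG to DS (beside 21.3%). On a common sum the difference of the locus was 1.18 from OV to GLOB and 0.42 from HEART to MG, so only the earlier of these rises stayed beyond the limit there. Of the 13 acyl carrier copies considered, 2 were higher from HEART to MG on that scale (15.4%, beside 7.25% of all genes). In the same step 4 were lower (30.8%, beside 51.2%). ACP1 held 64.5% of acyl carrier transcripts in OV and 91.2% in MG.

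The remaining carrier proteins differed in timing. ACP3 (AT1G54630) was at 54.9 FPKM in OV and within 87.2 to 94.7 in GLOB, HEART and MG, with 8.83 in DS. Scaled to a common sum it was lower in MG than in HEART, with a difference of -1.22 that is beyond the limit. ACP4 (AT4G25050), the main leaf isoform in Arabidopsis, was highest in OV, at 41.5 FPKM, and was at 19.6, 15.3, 37.3 and 21.2 FPKM in the later stages. ACP5 (AT5G27200) was at 0.237 FPKM (OV), 10.6 (GLOB), 17.5 (HEART), 60.7 (MG) and 1.00 (DS). ACP5 showed the largest difference of any locus from OV to GLOB, 3.23 on the log2 scale, starting from a value near 0. In DS, ACP4 at 21.2 FPKM was close to ACP1 at 25.7 FPKM.

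Thioesterases of the FATA class, which prefer oleoyl-ACP, and of the FATB class, which prefer saturated chains, were opposite in MG. FATA1 (AT3G25110) was at 20.2 FPKM (OV), 22.5 (GLOB), 26.8 (HEART), 79.9 (MG) and 45.9 (DS). FATA2 (AT4G13050) was at 12.9, 8.76, 13.2, 52.6 and 0.232 FPKM. FATB (AT1G08510) was at 48.7, 68.0, 72.3, 40.6 and 87.7 FPKM, lowest in MG and highest in DS. From HEART to MG, FATA1 and FATA2 were higher by 1.54 and 1.92 on the log2 scale, and FATB differed by -0.82. On a common sum these became 0.22, 0.63 and -2.14. The FATA share of all FATA and FATB transcripts, which multiplying a stage by 1 common factor cannot change, was 35.6% in HEART, 76.6% in MG and 34.5% in DS. LACS9 (AT1G77590), which couples released fatty acids to coenzyme A, was at 25.9, 21.3, 37.8, 94.4 and 24.2 FPKM from OV to DS. Its HEART to MG difference of 1.3 became -0.026 on a common sum.

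Release and export was the step least lowered from MG to DS, 1.69-fold by sum, against 10.8-fold for the synthase cycle and 38.4-fold for the acyl carrier proteins. Single copies carried the DS values. BnaN15g05910, a FATB copy on chromosome 15 of the C subgenome, was at 5.25 FPKM (OV), 9.34 (GLOB), 17.1 (HEART), 11.0 (MG) and 57.6 (DS), and gave 65.7% of FATB transcripts there. BnaN16g33480, a FATA1 copy on chromosome 16, was at 7.31, 2.80, 3.96, 1.99 and 45.6 FPKM and gave 99.5% of FATA1 in DS. The other FATA1 copies considered, BnaN07g05340 and BnaN17g09680, went from 53.5 and 24.0 FPKM in MG to 0.122 and 0.0264 in DS. The OV to DS direction of FATA1 accordingly depends on the copy: 1.15 by sum and -2.65 for BnaN07g05340. It depends on scaling too, since the sum differed by 0.15 on a common sum. The table pairs BnaN16g33480 with an A-letter Darmor identifier that other FATA1 copies also carry, and whether it encodes an intact enzyme was not tested.

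**Figure D5:**
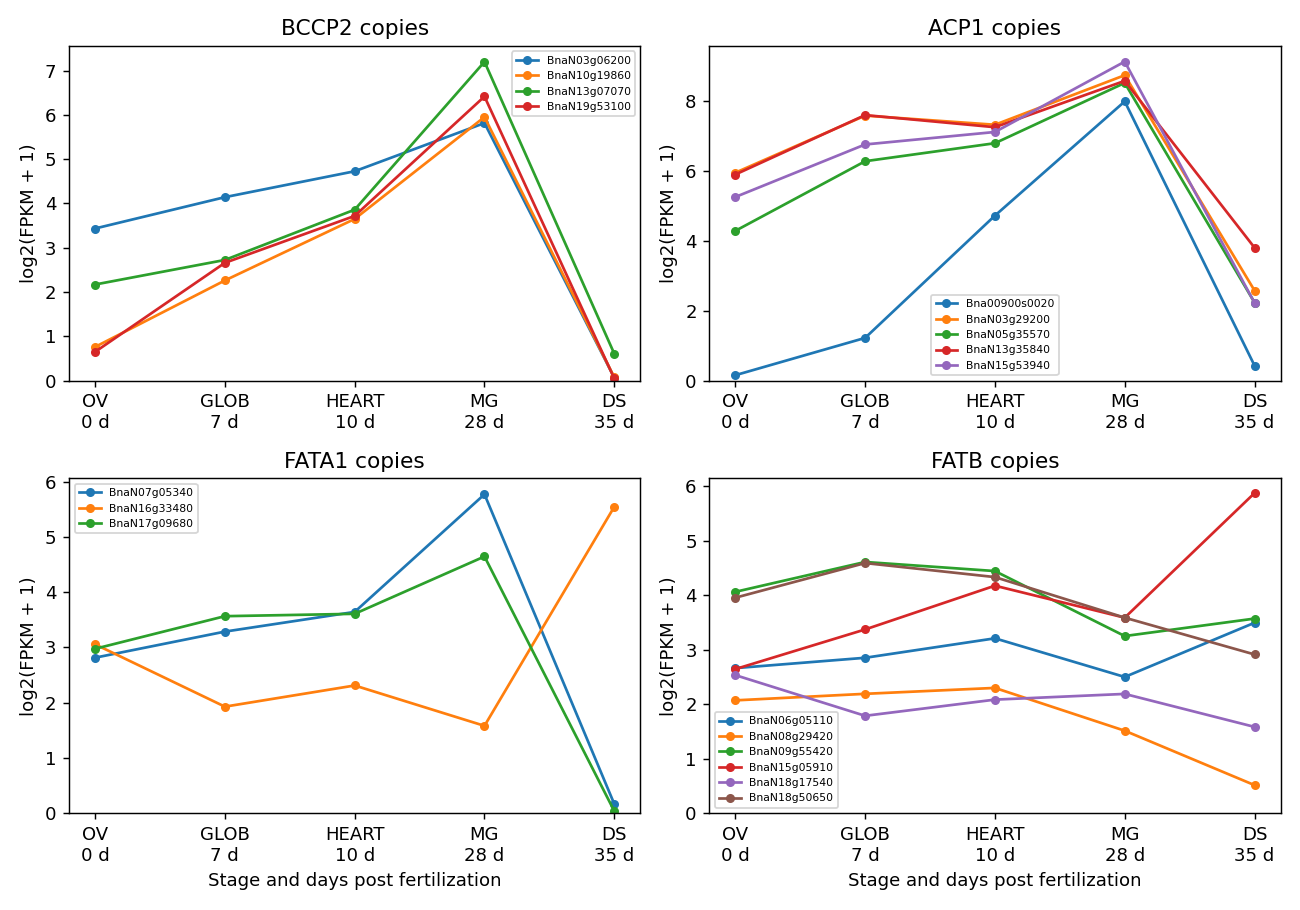
Values of single copies of BCCP2, ACP1, FATA1 and FATB on the log2(FPKM + 1) scale by stage, 1 line per copy at 1 FPKM or more in a stage, with stages spaced evenly and not by days. All BCCP2 and ACP1 lines peak in MG and end low in DS, while BnaN16g33480 of FATA1 and BnaN15g05910 of FATB end at their highest values, 45.6 and 57.6 FPKM.

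Copies of a locus seldom lay beyond the limit in opposite directions, though often only some of them passed it. Reads shared by near-identical copies make single values uncertain. From MG to DS, all copies considered were lower in 18 of the 29 loci with more than 1 such copy, and 4 loci (PKP-beta1, KASI, FATA1 and LACS9) had copies beyond the limit in both directions. From HEART to MG, all copies were higher in 8 of these, and KASI alone had both directions, through BnaN16g31600 and BnaN18g18850, which were at 3.61 and 3.95 FPKM in HEART and at 0.268 and 0 in MG. The leading copy changed in 12 loci from HEART to MG and in 18 from MG to DS, with no minimum margin required, and 6 of the 29 loci kept 1 leading copy in all 5 stages.

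In BCCP2 the change of leader was wide. BnaN03g06200 (chromosome 3, subgenome A) gave 67.3% of BCCP2 transcripts in OV, 40.6% in HEART and 16.0% in MG. BnaN13g07070 (chromosome 13, subgenome C) gave 24.0%, 21.5% and 42.1% in these stages, and with 13.5 FPKM in HEART and 146 in MG it had the largest rise of any copy in that step, 3.34. ACP1 showed a late starter. Its copy Bna00900s0020, on an unplaced scaffold, was at 0.114 FPKM (OV), 1.33 (GLOB), 25.4 (HEART), 253 (MG) and 0.348 (DS), while the other 4 copies considered were at 18.5 to 60.8 FPKM in OV already. It had the largest rise of any copy from GLOB to HEART (3.50) and the largest fall from MG to DS (-7.56). In ACP4, BnaN01g14700 had the largest fall from OV to GLOB, from 25.1 to 5.75 FPKM. The ACP5 copy BnaN09g04550 rose the most there, from 0.237 to 10.2 FPKM. BnaN03g29200, the ACP1 copy at 60.8 FPKM in OV and 4.97 in DS, had the largest fall between these end points (-3.37).

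Among the other loci, single copies gained weight in MG without leaving their locus behind. BnaN11g36000, the PKP-alpha copy with the highest mean, was at 7.23 FPKM (OV), 13.7 (GLOB), 17.6 (HEART), 173 (MG) and 3.57 (DS). It led PKP-alpha in HEART and MG, and BnaN03g37370, at 24.4 FPKM, led it in DS. The PDH-E1alpha copy BnaN09g58090 was at 10.9 FPKM (OV), 13.3 (GLOB), 17.2 (HEART), 169 (MG) and 5.79 (DS). Its part of the E1alpha transcripts was 26.6% in HEART and 46.0% in MG. BnaN01g18910 gave 59.0% of LPD2 in HEART and 76.4% in MG. FATB copies were less alike. BnaN09g55420 had the largest fall of any copy from HEART to MG, from 20.7 to 8.51 FPKM, and BnaN18g50650 was lower in DS (6.53 FPKM) than in OV (14.5), opposite to the sum of the locus. BnaN15g05910 had the largest rise of any copy from OV to DS, 3.23.

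Of the 153 copies, 147 could be placed, 69 on A and 78 on C chromosomes. C copies held 51.5% (OV), 51.9% (GLOB), 51.5% (HEART), 52.0% (MG) and 59.1% (DS) of the placed FPKM. Over all placed genes the C share lay between 48.0% and 50.1%. The DS value rests on a small sum in which the FATB copy BnaN15g05910 and the FATA1 copy BnaN16g33480, both on C chromosomes, are the largest parts. Read from the letter of the Darmor identifier, the C share was 60.6% in MG and 54.6% in DS, and ACP1 drops out because its copies have no such identifier. The subgenome order of the stages was thus not stable.

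Genes beside the pathway were followed through a list of 29 loci, 26 of which had a gene, with 88 copies considered. From HEART to MG, 23 of these were higher (26.1%, beside 17.4% of all genes), 7 were lower (7.95%, beside 22.4%) and the median was 0.54. For MG to DS the counts were 5 higher (5.68%, beside 19.0%) and 39 lower (44.3%, beside 21.3%), with a median of -0.85. On a common sum HEART to MG had 2 higher (2.27%, beside 7.25%) and 28 lower (31.8%, beside 51.2%). ENO1 (AT1G74030), the plastid enolase that makes phosphoenolpyruvate, was at 35.7 FPKM in HEART, 182 in MG and 5.06 in DS. GPT1, which brings hexose phosphate into the plastid, was at 55.8, 135 and 46.1 FPKM, and PPT1, which brings in phosphoenolpyruvate, at 29.5, 60.2 and 35.8. GAPCP1, a plastid glyceraldehyde phosphate dehydrogenase, was the reverse, at 49.1 FPKM in HEART, 9.06 in MG and 7.83 in DS, with 3 of 3 copies lower from HEART to MG. Of the other carbon supply genes, GAPCP2 was at 38.7 FPKM in HEART and 34.9 in MG, and ACS at 19.7 and 25.5. As deposited, carbon supply was thus represented by genes of both directions. On a common sum, 0 of its 18 copies were higher from HEART to MG (7.25% of all genes) and 6 were lower (33.3%, beside 51.2%).

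BADC proteins resemble BCCP but carry no biotin, and in Arabidopsis they inhibit the carboxylase. BADC3 (AT3G15690) was at 53.1 FPKM in HEART, 277 in MG and 7.15 in DS, with 4 of 4 copies higher into MG and 4 of 4 lower into DS. Of all genes, 17.4% were higher into MG and 21.3% lower into DS. BADC1 (AT3G56130) was at 69.1, 56.0 and 1.63 FPKM. On a common sum, 2 of the 6 BADC copies were higher into MG (33.3%, beside 7.25% of all genes) and 1 was lower (16.7%, beside 51.2%). All 6 were lower into DS on that scale (100%, beside 12.6%). The ratio of BCCP to BADC transcripts was 1.55 in OV, 1.03 in GLOB and HEART, 1.38 in MG and 5.23 in DS. As deposited, lipoyl synthase LIP1p, which completes the cofactor of E2, was at 22.4 FPKM in HEART and 49.5 in MG. The biotin ligase HCS1 was at 8.64 and 16.8 FPKM. On a common sum, 0 of the 9 copies of cofactor genes, LIP2p included, were higher into MG (beside 7.25% of all genes). There 1 was lower (11.1%, beside 51.2%), and their median was -0.12. The fatty acid exporter FAX1 was highest in GLOB, at 42.0 FPKM, and had 0 copies beyond the limit from HEART to MG as deposited. On a common sum 2 of its 5 copies considered were lower in that step (40%, beside 51.2% of all genes). ACC1, the cytosolic carboxylase, was at 5.21 FPKM in HEART and 19.4 in MG. On a common sum the median difference of its copies considered was 0.045.

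WRI1 (AT3G54320) was followed as a regulator of these genes. Its 5 copies summed to 32.4 FPKM (OV), 20.1 (GLOB), 135 (HEART), 148 (MG) and 100.4 (DS). From GLOB to HEART 4 of its 5 copies were higher, and 6 of the 111 copies of the pathway were. The pathway share, 5.41%, is near the 4.89% of all genes. From HEART to MG 0 WRI1 copies were higher and 1 was lower (20%) as deposited, beside 17.4% and 22.4% of all genes. The pathway had 61 higher and 3 lower in that step. On a common sum 0 WRI1 copies were higher and 3 were lower (60%), beside 7.25% and 51.2% of all genes. The counts of the pathway became 16 and 19 on that scale. From MG to DS 4 WRI1 copies were lower (80%, beside 21.3% of all genes) and 1 was higher (20%, beside 19.0%). The pathway had 87 lower and 6 higher in that step. On a common sum the WRI1 counts stayed at 4 and 1, beside 12.6% and 30.7% of all genes. In DS the WRI1 sum came almost wholly from 1 copy, BnaN01g26300, at 98.5 FPKM. The other 4 copies were at 17.0 to 65.2 FPKM in MG and at 0.130 to 0.750 in DS. BnaN01g26300 was at 27.9 FPKM in OV and 4.05 in MG, opposite to the pathway.

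Mitochondrial counterparts of the same enzymes gave a side-by-side view of a different compartment. Of 43 copies considered, HEART to MG had 9 higher, 2 lower and a median of 0.55. The higher share, 20.9%, is near the 17.4% of all genes, and on a common sum 0 were higher and 15 lower (34.9%, beside 51.2% of all genes). MG to DS had 3 higher (6.98%, beside 19.0%), 14 lower (32.6%, beside 21.3%) and a median of -0.63. The plastid medians in these steps were 1.1 and -3.07. By sum as deposited, mitochondrial counterparts were 2.17-fold lower in DS than in MG and the plastid pathway 11.8-fold lower. On a common sum 6 mitochondrial copies were higher in that step (14.0%, beside 30.7% of all genes) and 8 lower (18.6%, beside 12.6%). Their median was then -0.026, and that of the plastid copies -2.38. The mitochondrial E1alpha AT1G59900 was at 53.0 FPKM in HEART, 138 in MG and 106 in DS, where the plastid E1alpha was at 21.5 FPKM. Mitochondrial E1beta (AT5G50850) lay between 84.6 and 102 FPKM in all 5 stages. The mitochondrial carrier protein mtACP1 was at 262 FPKM in HEART, 431 in MG and 140.4 in DS, above ACP1 in DS. These differences between compartments were not tested.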

How the data were processed

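Per the labels' protocols and the series text, polyadenylated RNA of 14 libraries was read as single ends of 100 bases, trimmed with Trimmomatic (version 0.36) and aligned to the DH12075 genome with HiSat2. Cuffquant and Cuffdiff quantified and normalized. The submitters' processing notes name TopHat2 and Cuffnorm instead. The authors deposited FPKM values, 1 per gene and stage, and how replicates were combined is not given in the sources used here. The table also holds 2 columns that match no sample described here and were not used.

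Stages were compared on log2(FPKM + 1) with Python 3.11.15, numpy 2.4.6 and pandas 2.3.3, in 5 comparisons (4 consecutive steps and OV with DS). FPKM of copies was summed per Arabidopsis locus. Symbols were attached to loci from general knowledge. Chromosome numbers in DH12075 identifiers gave the subgenome, by the letter most paired Darmor identifiers carry. Counting was tested on simulated data. The RefSeq table matched 0 of the copies, so no names, coordinates or sequences came from it.

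Members and lists were chosen with earlier results of these data known. Named are all member loci, the copy with the highest mean of a locus where it bears on a result, the largest rise and fall of a step and copies opposite to their locus at 10 FPKM or more in the higher stage, and genes of the list beside the pathway. Other copies named (of PKP-alpha, KASI, FATA1 and BCCP2) were chosen after their values were seen. The alternatives were scaling by median of ratios, common sum or quantiles, a smaller pseudocount (0.1), dropping the filter or asking for a mean of 5 FPKM, the highest copy alone, and Darmor letters.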

Additional observations from a re-analysis of the deposited data

How the results depend on the processing

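No paired analysis was possible because only 1 value per stage was deposited, and leaving out a replicate was not run for this reason. Below, moved means beyond 1.5 times for a count, 5 percentage points for a share and a 1.5-fold ratio for a log2 difference. Among recomputed counts, medians and shares, 192 kept their value within these limits, 52 moved and 1 reversed. Median-of-ratios scaling moved 0 of them and the common sum moved or reversed most.

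On a common sum, OV to GLOB gave 9 higher and 12 lower copies, HEART to MG 16 higher and 19 lower (median -0.026, a reversal), and OV to DS 4 higher. The medians were -2.38 from MG to DS and -2.04 from OV to DS. Locus sums counted 2 higher and 3 lower from OV to GLOB, 1 higher from GLOB to HEART, 4 higher (PKP-alpha, PKP-beta1, PDH-E1alpha and BCCP2) and 2 lower (ACP3 and FATB) from HEART to MG, and 0 higher from OV to DS. Loci highest in a stage were 5 (OV), 2 (GLOB), 8 (HEART), 15 (MG) and 0 (DS), and copies 27 (OV), 13 (GLOB), 23 (HEART) and 43 (MG). The HEART to MG differences of 7 loci that were beyond the limit as deposited fell below 0: PKP-beta2 (-0.10), LPD2 (-0.17), CAC3 (-0.21), KASIII (-0.066), HAD AT5G10160 (-0.050), ACP4 (-0.056) and LACS9 (-0.026). Against the median of all genes on that scale, -1.03, 28 of the 30 loci lay higher. For the list beside the pathway, OV to GLOB gave 6 higher copies (6.82%, beside 11.9% of all genes) and 13 lower (14.8%, beside 25.4%). HEART to MG gave 2 higher (2.27%, beside 7.25%) and 28 lower (31.8%, beside 51.2%), and MG to DS 11 higher (12.5%, beside 30.7%). GLOB to HEART gave 1 lower (1.14%), and OV to DS 4 higher (4.55%) and 49 lower (55.7%). Shares of all genes were not counted for these steps on that scale. The OV to DS median was -1.16 for the list and -0.77 for all genes. As deposited, OV to DS gave 14 higher (15.9%, beside 23.1%) and 25 lower (28.4%, beside 25.5%).

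A pseudocount of 0.1 gave 8 lower from OV to GLOB, 1 lower from GLOB to HEART and 11 higher from OV to DS. Requiring a mean FPKM of at least 5, which leaves fewer copies, gave 2 lower from OV to GLOB, 1 lower from HEART to MG, 2 higher and a median of -3.83 from MG to DS, and 4 higher from OV to DS. Without the filter the MG to DS median was -1.69, as copies near 0 enter it. Quantile normalization and the highest copy alone each gave 1 locus higher from GLOB to HEART. With copies of mean FPKM of at least 5, the share of LTA2 was 52.1% in OV, 49.7% in GLOB, 43.2% in HEART and 60.0% in DS, that of ACP4 in DS 31.9%, that of PKP-beta1 100% in OV and DS, and that of AT5G10160 100% in OV, GLOB and DS. With Darmor letters the C share in MG was 60.6%.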
